A study of Homo sapiens with 4 samples.

Results

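The genes described here are the feedback inhibitors and extracellular antagonists of BMP signaling: SMAD6, SMAD7, BAMBI, NOG, GREM1, CHRD, FST, FSTL3 and BMPER. They were taken as a list of gene names, and all 9 were found among the 58302 genes of the deposited tables through their Ensembl identifiers. The libraries came from NCIH838 cells, which derive from a human lung tumor of the non-small-cell type and hold a piggyBac construct with a guide RNA against MIB1, Cas9 under doxycycline (dox) control and puromycin resistance. The cells are named MIB1-iKO after MIB1, whose product Mind Bomb 1 is an E3 ubiquitin ligase. The 2 no dox samples and the 2 samples given 0.5 µg/mL dox were all taken at day 3, without added BMP ligand, and both groups carry the construct. There was no group of cells given dox without a guide against MIB1, so dox itself and loss of MIB1 cannot be told apart. The study's MIB1-iKO lines were grown from single cells, so a line is 1 clone. The study calls the replicates biological, while the labels do not say whether they were separate cultures. The p-values rest only on the spread between these samples, which the fits partly pool over genes. How much of that spread is technical is not known.

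BMP ligands bind pairs of type I and type II receptor kinases, which phosphorylate SMAD1, SMAD5 and SMAD9 (SMAD8). These enter the nucleus with SMAD4 and switch on target genes, among them ID1, ID2 and ID3. Signaling is held back at several levels. Secreted proteins such as noggin, gremlin, chordin and BMPER bind BMPs outside the cell, follistatin and the follistatin-like protein FSTL3 bind activins above all, BAMBI is a membrane protein that resembles a type I receptor without its kinase, and SMAD6 and SMAD7 occupy or mark the receptors for degradation inside the cell. Several of these genes are themselves switched on by BMP or TGF-β signaling, which makes them both brakes on the pathway and readouts of it.

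Promoter sequence from RefSeq (build GRCh38.p14) was matched for 8 of the 9 genes in 12 windows. Each window reached from 250 bases before to 50 bases after a start site. NOG had no window, so its promoter was not searched. The windows were searched on both strands for GGCGCC, a GC-rich motif bound by SMAD proteins. They were also searched for GTCTAGAC, the palindromic SMAD box, and for the BMP-responsive element known from ID1. GGCGCC stood in the windows of 5 genes (BAMBI, BMPER, CHRD, FSTL3 and GREM1), and in 19.2% of all 35116 windows. Some genes have several windows, so a count of genes and a share of windows are not the same measure. GTCTAGAC stood in the window of SMAD6 and in 0.202% of all windows. The BMP-responsive element was in the windows of 0 of the 8 genes searched and in 0.473% of all windows. At so low a share, 0 in 12 windows says little about these genes, and sequence outside the windows was not searched. A stretch of the BAMBI window, which holds GGCGCC 3 times, and a stretch of the SMAD6 window, which holds the palindrome, are shown as examples with matches. These genes encode pathway brakes of the receptor and of the SMAD level. SMAD7, also a brake of the SMAD level, had no match in its 3 windows. Capitals mark the motif matches, which begin at positions -209, -196 and -181 from the start of BAMBI and at position -12 from that of SMAD6. A match describes letters in the window and is not a measured binding site.
BAMBI, chr10:28677291-28677390, + strand: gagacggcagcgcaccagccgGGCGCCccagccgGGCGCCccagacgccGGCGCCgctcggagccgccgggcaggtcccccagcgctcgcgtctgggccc
SMAD6, chr15:66702136-66702235, + strand: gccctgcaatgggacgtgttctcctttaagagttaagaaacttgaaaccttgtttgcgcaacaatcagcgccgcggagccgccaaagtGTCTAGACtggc

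The deposited reads summed to between 15943025 and 24398411 per library, lower in both dox libraries, and 3 reads, the limit that a count of 0 allows, stood for between 0.123 and 0.188 CPM, the count of a gene relative to the total of its library. MIB1 itself had 598 and 588 reads in no dox replicates 1 and 2 and 90 and 59 reads in dox replicates 1 and 2, and fell by 2.58 on the log2 scale (limma, adjusted p = 0.000375), as the labels imply. Of 6 epithelial markers, KRT7, KRT8, KRT18, EPCAM and CDH1 were expressed and KRT19 was listed at 0 in all 4 libraries. Their summed level lay between 116 and 125 RPKM without dox and between 103 and 107 RPKM with dox, and the part of that difference in the results that follow was not tested. RPKM are reads scaled to gene length and library depth. Of 4 lung adenocarcinoma lineage markers, NKX2-1 and SFTPB were at 0 and NAPSA and SFTPC had at most 8 reads. Of 2 mesenchymal markers, VIM ranged from 34.5 to 43.3 RPKM and CDH2 was at 0. Of 5 fibroblast markers, COL1A2 was at 0, DCN and PDGFRB had at most 7 reads, LUM ranged from 1.34 to 2.31 RPKM and COL1A1 from 0.215 to 0.681 RPKM. Of 3 leukocyte markers, PTPRC was at 0, CD3E had at most 4 reads and CD14 ranged from 4.17 to 4.45 RPKM. The 3 endothelial markers PECAM1, VWF and CDH5 had at most 10 reads.

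None of the 9 genes was called changed by dox in the main fit, which does not use the replicate number. A fit with that number as a block called NOG. NOG and SMAD6 were the members with the highest fold changes among those tested. Both lay higher in the 2 dox libraries than in the 2 no dox libraries, but neither passed the adjusted threshold in the main fit. In CPM, 18.7% of all genes tested also lay higher in both dox libraries. FSTL3 was the member with the highest RPKM in every library, and its 2 RPKM values with dox lay below those without. In RPKM this held for 20.5% of all genes tested, and in CPM the groups of FSTL3 overlapped. BAMBI lay higher in both dox libraries in RPKM and overlapped in CPM. GREM1, CHRD and FST were at or near the limit of detection. Calls required both an adjusted p no higher than 0.05 and a 2-fold change or more in limma, run on the counts of 16181 genes that passed the filter on low counts. Of the 9 members, 6 passed that filter, and 0 were called, against 0.0371% of all genes tested (6 genes, 1 of them MIB1). edgeR and DESeq2 also called 0 of them. At an unadjusted p under 0.05 limma found 2 of the 6 (NOG and SMAD6), both higher with dox, edgeR 2 and DESeq2 1. Over all genes tested, 9.28% had such a p in limma, 4.68% with a higher value under dox. With 2 samples against 2, an exact permutation test cannot give a two-sided p below 0.333, so no such test was run on single genes.

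Levels differed widely among the members. RPKM is the scale on which they can be compared, because it takes out gene length. FSTL3 ranged from 38.8 to 50.3 RPKM over the 4 libraries and stood between the 90.6th and 92.6th percentile of the genes with a read. It made up between 73.1% and 81.8% of the summed RPKM of the 9 genes. BAMBI followed at 7.05 to 9.38 RPKM. NOG (0.405 to 2.01 RPKM), BMPER (0.874 to 1.38 RPKM) and SMAD7 (0.787 to 1.23 RPKM) overlapped in their ranges, so their order is not set by these data. SMAD6, at 0.322 to 0.787 RPKM, overlapped NOG in its range and ended just under that of SMAD7. The other 3 genes stayed under 0.14 RPKM in every library. The gaps between FSTL3 and BAMBI, and between BAMBI and the genes after it, were larger than the ranges over libraries.

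**Figure D1:**
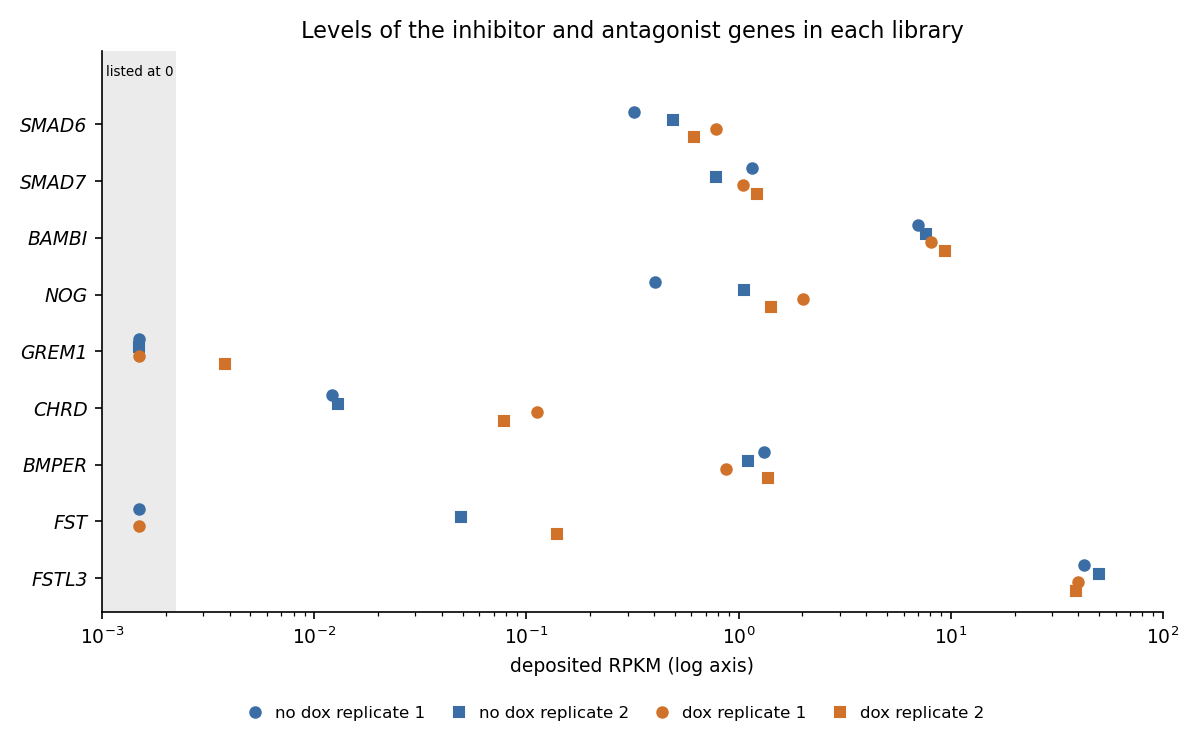
Level of each of the 9 genes in each library, as deposited RPKM on a log axis (circles, replicate 1; squares, replicate 2; blue, no dox; orange, dox); points in the grey strip are listed at 0. FSTL3 lies between 38.8 and 50.3 RPKM, BAMBI between 7.05 and 9.38 RPKM, and GREM1, CHRD and FST under 0.14 RPKM.

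SMAD6 encodes the inhibitory SMAD that acts mainly on BMP receptors (ENSG00000137834, chr15:66702236-66782849, + strand, 5 exons after merging overlaps; GENCODE release 44 on GRCh38, as for the genes that follow). It had 29 and 41 reads in no dox replicates 1 and 2 and 46 and 43 reads in dox replicates 1 and 2. In RPKM this was 0.322 and 0.488 without dox and 0.787 and 0.619 with dox. Both dox libraries were above both no dox libraries, on a level of few reads. The group means were 0.405 ± 0.118 RPKM (SD, n = 2) and 0.703 ± 0.119 RPKM (SD, n = 2). The limma fit gave a log2 fold change of 0.77 ± 0.34 (SE), a 1.71-fold difference with a 95% confidence interval of 1.04 to 2.81, at an unadjusted p of 0.0373 and an adjusted p of 0.503. Leaving out no dox replicate 1 took this value to 0.45 on the log2 scale. In bulk RNA, fewer cells that express a gene and less RNA per cell cannot be told apart, here or for any gene that follows.

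SMAD7 encodes the inhibitory SMAD that acts on both TGF-β and BMP receptors and recruits ubiquitin ligases to them (ENSG00000101665, chr18:48919853-48950965, - strand, 7 merged exons). It had 87 and 55 reads without dox and 51 and 71 reads with dox, or 1.16 and 0.787 RPKM against 1.05 and 1.23 RPKM. The groups overlapped, and the no dox libraries held the lowest and the second highest value. The log2 fold change in limma was 0.21 ± 0.28 (SE), a 1.16-fold difference with a 95% interval of 0.757 to 1.76 and an adjusted p of 0.875. The sign turned without no dox replicate 2, to -0.046. The 2 inhibitory SMADs thus had intervals that overlap, and the difference between them was not tested.

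BAMBI, the pseudoreceptor, was the member with the second highest level (ENSG00000095739, chr10:28677510-28682932, + strand, 2 merged exons). It had 311 and 315 reads without dox and 232 and 319 reads with dox. In RPKM the values were 7.05 and 7.67 without dox and 8.11 and 9.38 with dox, so the dox libraries were higher and the groups did not overlap. In CPM they did overlap, at 12.7 and 14.9 without dox against 14.6 and 18.7 with dox. The authors' RPKM carry a further factor per library, between 0.906 and 1.01 relative to no dox replicate 1, which moves such narrow gaps. The log2 fold change in limma was 0.27 ± 0.16 (SE), a 1.21-fold difference with a 95% interval of 0.950 to 1.54 and an adjusted p of 0.644.

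NOG encodes noggin, which covers the receptor-binding surfaces of BMPs (ENSG00000183691, chr17:56593699-56595611, + strand, 1 exon). It had 18 and 44 reads in no dox replicates 1 and 2 and 58 and 49 reads in dox replicates 1 and 2. The RPKM values were 0.405 and 1.06 without dox and 2.01 and 1.43 with dox. Both dox libraries were above both no dox libraries, and no dox replicate 1 was by far the lowest. The group means were 0.734 ± 0.465 RPKM (SD, n = 2) and 1.72 ± 0.412 RPKM (SD, n = 2). The log2 fold change was 1.36 ± 0.41 (SE) in limma, a 2.56-fold difference with a 95% interval of 1.40 to 4.68, at an unadjusted p of 0.00489 and an adjusted p of 0.311. Over 8 other fits the adjusted p ran from 0.0158 to 0.613, and only the fit with the replicate number as a block called NOG. The value rests in large part on no dox replicate 1, since it was 0.62 on the log2 scale without it and 2.00 without no dox replicate 2. Counting error does not cover the gap between the no dox libraries: NOG stood at 0.738 CPM in replicate 1 (95% exact Poisson interval 0.437 to 1.17) and at 2.07 in replicate 2 (1.51 to 2.79). The interval of no dox replicate 2 overlapped those of dox replicate 1 (2.76 to 4.70) and dox replicate 2 (2.13 to 3.80). Such intervals cover counting error only, because PCR reads without molecular identifiers are not independent molecules.

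**Figure D2:**
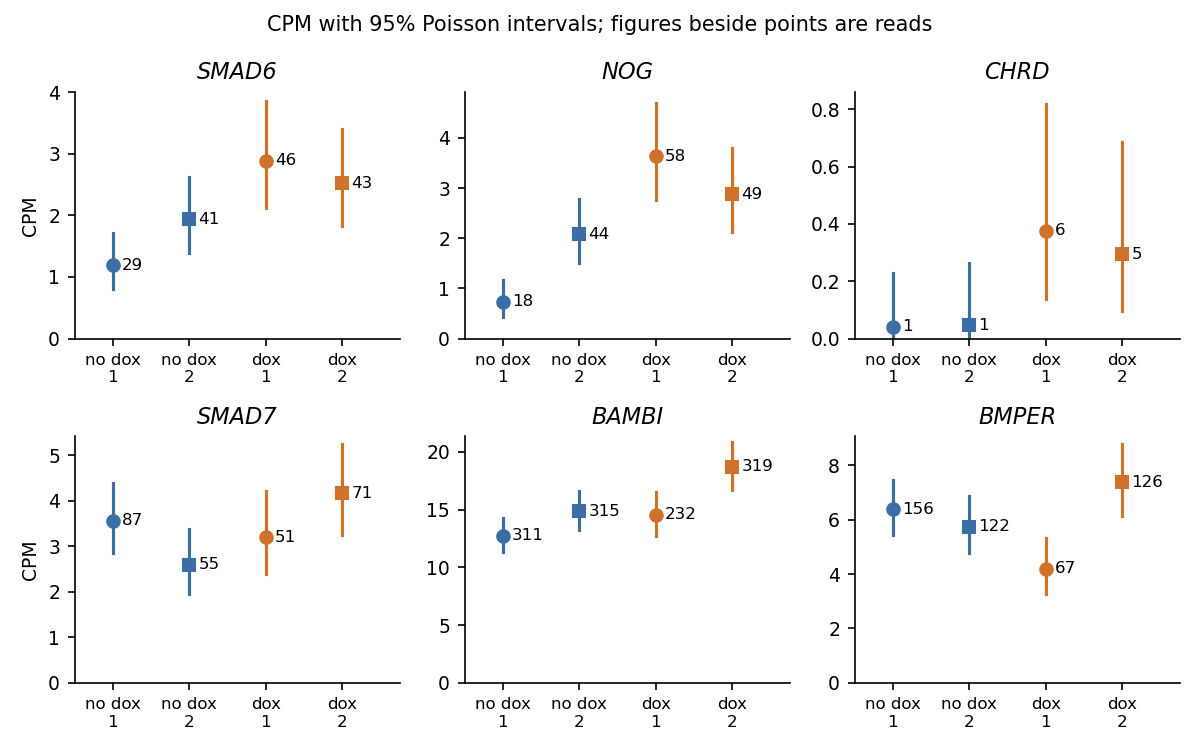
CPM in each library for 6 members (points; number beside each point, reads; bars, 95% exact Poisson intervals, counting error only; blue, no dox; orange, dox; each panel has its own axis from 0). NOG and SMAD6 lie higher in both dox libraries, while SMAD7, BAMBI and BMPER overlap between the groups and CHRD rests on 1 to 6 reads.

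CHRD encodes chordin, which holds BMPs in a complex until a protease cleaves it (ENSG00000090539, chr3:184380054-184390736, + strand, 14 merged exons). It had 1 read in each no dox library and 6 and 5 reads in dox replicates 1 and 2, at most 0.112 RPKM. The dox libraries were higher, but the no dox values were below the limit of 3 reads. The rate of reads pooled over the groups, 11 reads with dox against 2 without, was 7.60 times higher with dox, with a 95% exact interval of 1.66 to 70.6 that covers counting error only. CHRD did not pass the filter on low counts. In the limma fit without that filter the lowest adjusted p of all genes, MIB1 included, was 0.613. That fit could therefore call no gene. CHRD had that same adjusted p there, with a log2 fold change of 2.17 and an unadjusted p of 0.0111 in limma. Its exons share 361 bases with THPO on the opposite strand, and whether strand was used in counting is not stated, so reads of the pair cannot be told apart with certainty. THPO was listed with 0 and 1 reads without dox and 0 reads in both dox libraries.

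GREM1, which encodes gremlin, a noggin-like blocker of BMPs (ENSG00000166923, chr15:32718004-32745106, + strand, 3 merged exons), had 1 read in all 4 libraries together, in dox replicate 2. It was not detectable at this depth, and no fold was computed. Its exons share 367 bases with GREM1-AS1 on the opposite strand, which had 0 reads in every library.

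BMPER, the crossveinless homologue that binds BMPs and can both block and aid them (ENSG00000164619, chr7:33904308-34156427, + strand, 24 merged exons), had 156 and 122 reads without dox and 67 and 126 reads with dox. In RPKM this was 1.32 and 1.11 without dox and 0.874 and 1.38 with dox. The dox libraries held both the lowest and the highest value. In CPM dox replicate 1 stood at 4.20 (95% exact Poisson interval 3.26 to 5.34) and dox replicate 2 at 7.39 (6.16 to 8.80), so the 2 dox libraries differed by more than counting error. The log2 fold change in limma was -0.14 ± 0.25 (SE) with a 95% interval of -0.68 to 0.40 and an adjusted p of 0.910, and its sign turned without dox replicate 1, to 0.21.

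The 2 antagonists of activins differed widely in level. FST, which encodes follistatin (ENSG00000134363, chr5:53480626-53487134, + strand, 6 merged exons), had 0 and 3 reads without dox and 0 and 7 reads with dox. In each group 1 library was at 0, and the pooled rate with dox was 3.23 times that without, with a 95% exact interval of 0.736 to 19.3. FSTL3, which encodes a secreted relative of follistatin (ENSG00000070404, chr19:676392-683392, + strand, 6 merged exons), had 2712 and 2988 reads without dox and 1649 and 1910 reads with dox. The RPKM values were 42.5 and 50.3 without dox and 39.8 and 38.8 with dox, with both dox libraries lower. In CPM the groups overlapped, at 111 and 141 without dox and 103 and 112 with dox. The group means were 46.4 ± 5.49 RPKM (SD, n = 2) and 39.3 ± 0.734 RPKM (SD, n = 2). The log2 fold change in limma was -0.21 ± 0.13 (SE), with a 95% interval of -0.48 to 0.06 and an adjusted p of 0.644. It was -0.06 without no dox replicate 2, the library with the highest level. The interval leaves out a fall of 2-fold.

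Whether the groups overlapped depended on the scale. In CPM, 3 members (NOG, SMAD6 and CHRD) lay higher in both dox libraries and 0 lay lower. Of the 6 tested, 2 were higher, against 18.7% of all genes tested that were higher in both and 17.4% that were lower in both. In RPKM, 4 members were higher, with BAMBI as the addition, and FSTL3 was lower. Of the 6 tested, 3 were higher and 1 lower, against 18.1% and 20.5% of all genes tested. The median log2 fold change of the 6 was 0.24, with 4 above 0 and 2 below, beside a median of -0.0004 over all genes tested, of which those from percentile 25 to percentile 75 lay between -0.16 and 0.16. These counts describe 6 genes and were given no test.

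**Figure D3:**
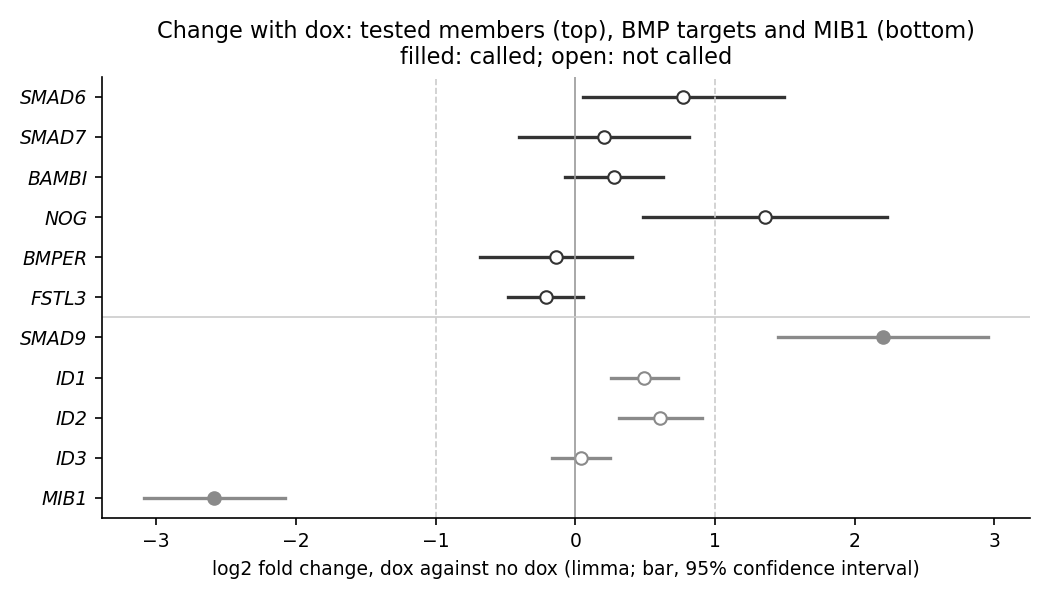
Log2 fold change of dox against no dox from limma (points) with 95% confidence intervals (bars) for the 6 members tested, above the line, and for 4 BMP target genes and MIB1, below it; filled points were called, and dashed lines mark a 2-fold change. NOG, at 1.36, has the widest interval of the members, and SMAD9, at 2.20, and MIB1, at -2.58, are called.

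The direct targets of BMP signaling give the readout that these inhibitors act on. Of 8 target genes listed, 7 were tested and 1 was called, SMAD9, which encodes a SMAD activated by BMP receptors. The study also describes a role of SMAD9 in negative feedback. In a separate experiment, the study reported SMAD9 higher in MIB1 knockout cells even while BMP receptors were inhibited. There, BAMBI and NOG were reported higher in knockout cells with BMP signaling on, and not with it inhibited. For RNA-seq at basal BMP signaling, the study described SMAD9 as raised by MIB1 knockout. It called the shifts of ID genes and NOG in that RNA-seq modest and not significant. SMAD9 was at 20 and 24 reads in no dox replicates 1 and 2, against 60 and 96 in dox replicates 1 and 2, and its rise on the log2 scale was 2.20 ± 0.35 (SE), with an adjusted p of 0.0265 in limma. It was not called without the filter on low counts or on the log2 RPKM scales. ID1 encodes a dominant-negative partner of bHLH factors. It had 84.7 and 90.7 RPKM without dox and 124 and 119 RPKM with dox, or 0.49 ± 0.11 (SE) on the log2 scale at an adjusted p of 0.167 in limma. ID2, of the same family, had 10.7 and 11.2 RPKM without dox and 17.7 and 15.4 RPKM with dox, and 0.61 ± 0.14 (SE) at an adjusted p of 0.167 in limma. The groups did not overlap for ID1 or ID2, and both missed the adjusted threshold in this fit, which has no replicate block. Of all genes tested, 18.7% were higher in both dox libraries in CPM, and 17.4% were lower in both. ID3 ranged from 369 to 410 RPKM, with a log2 fold change of 0.04, and in CPM it too was higher in both dox libraries. MSX1, a homeobox gene, was the target with the smallest p among those below 0, at -0.63 (limma, adjusted p = 0.682). In CPM it was lower in both dox libraries. At an unadjusted p under 0.05 limma found 3 of the 7 targets (SMAD9, ID1 and ID2), beside 9.28% of all genes tested. The interval of SMAD6, whose product acts on the same receptors, covered the values of ID1 and ID2 but not that of SMAD9.

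Other proteins of the same roles showed 0 calls in limma at either side, beside 0.0371% of all genes tested. Of 21 other secreted antagonists, 7 were tested, 8 had no read in any library, and the median log2 fold change was -0.07. FSTL1 (69.9 to 82.4 RPKM) and TWSG1 (33.4 to 39.3 RPKM), named after their values were seen because they were the most abundant of these, framed the level of FSTL3: in every library FSTL1 lay above it and TWSG1 below it. Of those below 0, the smallest p belonged to CRIM1, a membrane protein with chordin-like repeats, at -0.12. At an unadjusted p under 0.05, limma found 0 of these 7. Of 16 other intracellular inhibitors, 15 were tested with a median of 0.04. TOB1, a repressor that binds BMP-activated SMADs, had 45.1 and 41.8 RPKM without dox and 33.1 and 32.2 RPKM with dox, or -0.38 on the log2 scale (limma, unadjusted p = 0.0045, adjusted p = 0.306). NEDD4L, a ubiquitin ligase for SMADs, had 2.34 and 2.36 RPKM without dox and 2.89 and 3.02 RPKM with dox, or 0.35 on the log2 scale (limma, unadjusted p = 0.0202, adjusted p = 0.437). For both genes the groups did not overlap, and the differences were under 2-fold. In CPM, 18.7% of all genes tested were higher in both dox libraries and 17.4% were lower in both. TOB1 and NEDD4L were the only genes of the 15 with an unadjusted p under 0.05 in limma, beside 9.28% of all genes tested.

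The proteases, ligands and receptors with which the antagonists work also held 0 called genes, beside 0.0371% of all genes tested. Of 3 proteases that cleave chordin, 2 were tested. BMP1 lay at 8.06 and 8.74 RPKM without dox and at 6.22 and 7.21 RPKM with dox, or -0.29 on the log2 scale (limma, adjusted p = 0.533), and TLL2, with 26 to 37 reads, at 0.75 (limma, adjusted p = 0.540). Of 16 ligands bound by the antagonists, 6 had no read, and all 5 that were tested lay below 0, with a median of -0.30. The median over all genes tested was -0.0004. BMP8B, with 30 and 22 reads in the no dox libraries against 11 and 5 in the dox libraries, was the one with the smallest p, at -1.41 (limma, unadjusted p = 0.0175, adjusted p = 0.414). BMP6, named after its values were seen because it was the most abundant of the ligands tested, ranged from 10.1 to 13.9 RPKM. Of 6 co-receptors 4 were tested, with RGMB at 0.86 and RGMA at -0.93, both on at most 25 reads per library. Of 10 receptors 8 were tested, with a median of -0.01, TGFBR2 at 0.11 and ACVR1B at -0.44. At an unadjusted p under 0.05 limma found 1 of the ligands (BMP8B), 1 of the proteases (BMP1) and 0 of the co-receptors and receptors. The share of all genes tested with such a p was 9.28%. Over these 7 lists, 48 of 80 genes were tested and SMAD9 was called, and edgeR and DESeq2 also called 1.

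**Figure D4:**
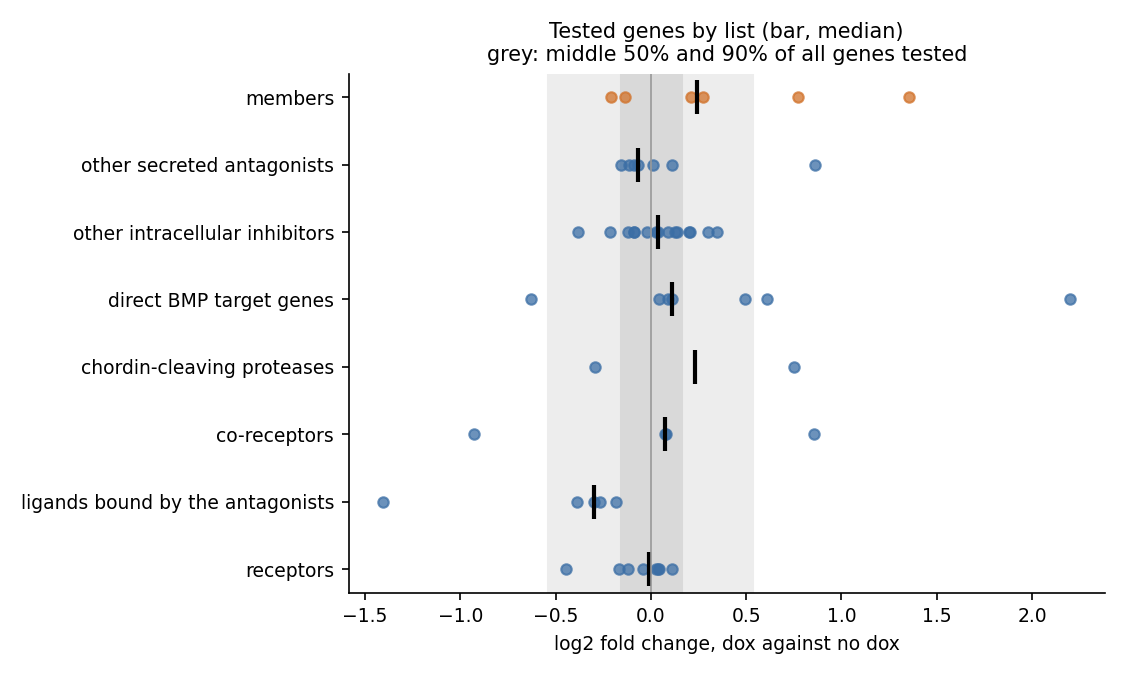
Log2 fold change of dox against no dox from limma for each tested gene of the members (orange) and of 7 lists of related genes (blue), with the median as a black bar; the dark and light grey bands hold the middle 50% and 90% of all 16181 genes tested. NOG at 1.36 and SMAD6 at 0.77 lie outside the light band, and the 5 ligands all lie below 0.

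The direction of the members' differences held to different degrees when the processing was changed. Over the fits with other models, scales and filters, each tested member kept its sign. When 1 library was left out, NOG, SMAD6, BAMBI and FSTL3 kept their sign in all 4 fits and SMAD7 and BMPER in 3 of 4. The span of values was widest for NOG, from 0.62 to 2.00, and BAMBI had the narrowest, from 0.17 to 0.38.

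**Figure D5:**
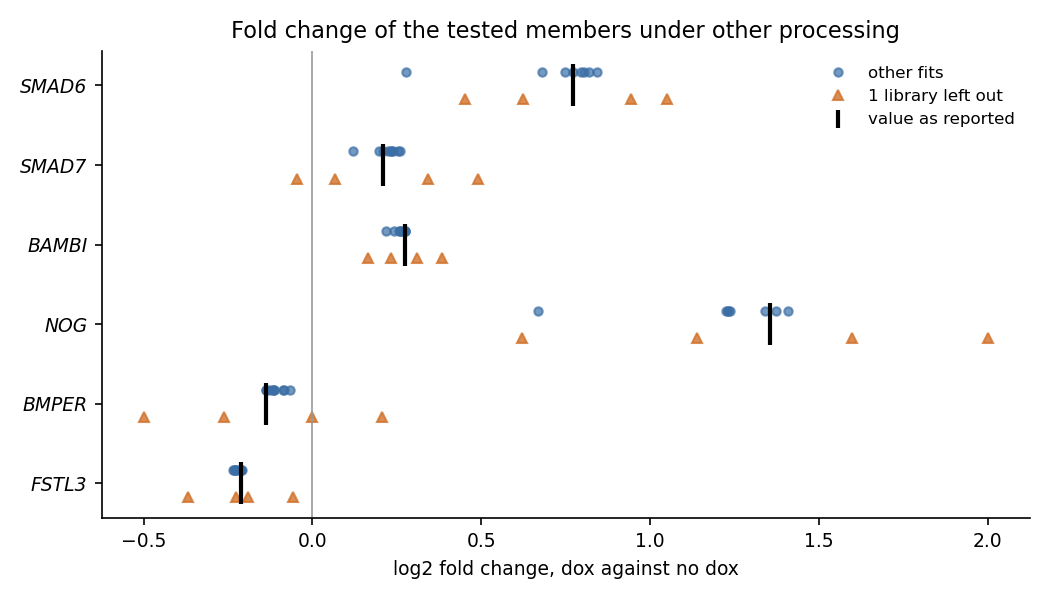
Log2 fold change of the 6 tested members as reported (black bar), in fits with other models, scales or filters (blue circles), and with 1 library left out (orange triangles). The triangles of NOG reach from 0.62 to 2.00, and those of SMAD7 and BMPER fall on both sides of 0.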

How the data were processed

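RNA-seq was performed on 4 libraries, 2 per group, which were assigned from the sample labels. The authors removed ribosomal RNA reads, aligned single-end reads of 50 bases to GRCh38 with GSNAP and counted exonic reads per gene with HTSeqGenie. The deposited count values are whole and not normalized. The authors also deposited RPKM, which carry an additional scaling per library. Which of 2 library kits was used, and whether strand was used, is not stated, and a RefSeq annotation is named although identifiers are Ensembl. Of 58302 identifiers, 57532 had a symbol in GENCODE release 44.

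Counts that passed filterByExpr (16181 genes) were scaled by library total, brought to common quantiles, weighted with voom and fitted in limma 3.58.1 (R 4.3.3), with Benjamini-Hochberg adjustment over all genes. Calls needed an adjusted p no higher than 0.05 and a 2-fold change. RPKM served for levels. Alternatives were edgeR 4.0.16 (TMM), DESeq2 1.42.0, voom with TMM or library size alone, no count filter, a mean count of at least 50, log2(RPKM + 0.1), log2(RPKM + 1), the replicate number as a block, other thresholds, and leaving out each library. Fold changes understate low genes on the log2(RPKM + pseudocount) scales.

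Members and lists were chosen with earlier results of these data known. Named genes are the members, MIB1, ID1, ID2, ID3, SMAD9, called genes of the lists and, per list, the tested gene with the smallest unadjusted p in each direction. A gene that this rule names is not reported here. Depth and its limits are given with the results.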

Additional observations from a re-analysis of the deposited data

How the results depend on the processing

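The count of 0 called members held in edgeR, DESeq2, voom with TMM or library size alone, without the count filter, with a minimum mean count of 50, on both log2(RPKM + pseudocount) scales and under both other thresholds; NOG and SMAD6 fell short of that mean count. With a replicate block it was 1 (NOG, log2 fold change 1.22, limma adjusted p = 0.0158). The labels number the replicates without saying what a number stands for. The deviations of same-numbered samples from their group means had a Pearson's r of 0.134 over 16181 genes, which are not independent. This value cannot decide whether same-numbered samples were paired. Results with and without the block are therefore both given. The block raised the calls over all genes from 6 to 78. It raised the genes at a limma adjusted p no higher than 0.05 from 11 to 1154. With 4 libraries, the block leaves little information on the spread of each gene. Its p-values therefore lean on spread shared across genes, as those of the main fit also do in part. With the block, the limma adjusted p was 2.47e-07 for ID1, 3.63e-05 for ID2, 0.000243 for TOB1 and 0.0284 for NEDD4L, all with differences under 2-fold. In the lists of related genes the count of 1 (SMAD9) became 0 without the count filter, 0 with log2(RPKM + 0.1) and 0 with log2(RPKM + 1). Without the count filter, and in both RPKM fits, limma called 0 of all genes, with 2092, 1442 and 1438 at an unadjusted p under 0.05.

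With 1 library left out, the log2 fold changes ranged from 0.62 to 2.00 for NOG, 0.45 to 1.05 for SMAD6, 0.17 to 0.38 for BAMBI, -0.046 to 0.49 for SMAD7, -0.50 to 0.21 for BMPER and -0.37 to -0.06 for FSTL3. The sign turned for SMAD7 without no dox replicate 2 (-0.046) and for BMPER without dox replicate 1 (0.21); the cause was not tested. These fits assume that the lone sample of a group varies like the other group, and only their fold changes were used. The adjusted p ranged over the other fits from 0.166 to 0.882 for SMAD6, 0.257 to 0.999 for BAMBI, 0.750 to 0.999 for SMAD7, 0.838 to 0.999 for BMPER and 0.0507 to 0.935 for FSTL3. Depth limits CHRD, FST and GREM1, which had at most 7 reads in a library.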
